A study of Mus musculus with 12 samples.

Results

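The genes described here are 10 inflammatory mediators and feedback inhibitors measured in the mouse adrenal medulla: the chemokines Ccl2, Ccl7 and Cxcl1, the chemokine receptor Ccrl2, the cytokines Il6 and Il1b, the interleukin 1 receptor Il1r1, and the inhibitors Nfkbia, Tnfaip3 and Socs3. They were chosen by name, with earlier results of these data known, and each was read from the probe set annotated to its symbol, with 1 probe set for each of the 10. They are 10 of the 19505 genes measured. The tissue came from 12 male C57Bl6 mice, 1 Affymetrix array per animal, with 3 animals in each of 4 groups. Germ-free mice, which carry no gut microbes, received insulin (animals 10, 11 and 12) or saline (animals 7, 8 and 9). Normally colonized mice of the same strain received insulin (animals 4, 5 and 6) or saline (animals 1, 2 and 3). All mice were fasted for 3 h and injected intraperitoneally, the insulin dose was 2 IU/kg, and the tissue was taken 90 min after injection. No ages are given in the labels. The comparisons asked how insulin-induced hypoglycaemia changes these transcripts, and whether that response depends on a gut flora.

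Nuclear factor kappa B (NF-kB) is a transcription factor held in the cytoplasm by inhibitor proteins of the I-kappa-B family. Signals from interleukin 1, tumour necrosis factor or microbial products release it, and it then switches on chemokines and cytokines together with its own inhibitors, Nfkbia and Tnfaip3, which end the response. Interleukin 6 acts further downstream through the transcription factor STAT3, which induces Socs3, the inhibitor of that branch. In the adrenal gland, chromaffin and cortical cells can make interleukin 6 and respond to interleukin 1, so these genes connect immune signals with the output of stress hormones.

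Promoters of 4 of the genes are shown: Ccrl2, the gene called for insulin within a colonization state, Il6 and Nfkbia, a cytokine and an inhibitor of the NF-kB branch, and Socs3, the inhibitor of the STAT3 branch. RefSeq promoter windows (build GRCm38.p6, 250 bases before to 50 bases after the start) were found for 8 of the 10 genes. Each window was searched on both strands for the kappa-B consensus bound by NF-kB and for TTCNNNGAA, the site type bound by STAT factors. Capitals mark the kappa-B match in Ccrl2 (chr9:111057469-111057768, minus strand), Il6 (chr5:30012864-30013163, plus strand) and Nfkbia (chr12:55492598-55492897, minus strand) and the STAT-type match in Socs3 (chr11:117969317-117969616, minus strand).
Ccrl2: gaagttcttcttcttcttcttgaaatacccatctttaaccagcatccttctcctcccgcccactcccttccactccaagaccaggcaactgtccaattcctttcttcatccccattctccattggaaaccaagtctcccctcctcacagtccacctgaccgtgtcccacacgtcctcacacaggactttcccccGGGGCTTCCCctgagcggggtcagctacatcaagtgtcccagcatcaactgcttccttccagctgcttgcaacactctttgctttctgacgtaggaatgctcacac
Il6: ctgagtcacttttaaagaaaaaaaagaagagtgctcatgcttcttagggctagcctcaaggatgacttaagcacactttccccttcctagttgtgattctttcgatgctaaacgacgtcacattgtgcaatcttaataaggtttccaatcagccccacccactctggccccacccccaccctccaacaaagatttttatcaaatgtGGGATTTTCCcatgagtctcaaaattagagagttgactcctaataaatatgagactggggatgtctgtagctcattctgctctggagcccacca
Nfkbia: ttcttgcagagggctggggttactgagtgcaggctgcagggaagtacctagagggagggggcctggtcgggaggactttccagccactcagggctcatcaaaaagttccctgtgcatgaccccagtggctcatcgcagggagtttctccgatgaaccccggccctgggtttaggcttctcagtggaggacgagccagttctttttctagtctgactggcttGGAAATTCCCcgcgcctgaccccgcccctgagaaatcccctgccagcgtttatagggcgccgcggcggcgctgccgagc
Socs3: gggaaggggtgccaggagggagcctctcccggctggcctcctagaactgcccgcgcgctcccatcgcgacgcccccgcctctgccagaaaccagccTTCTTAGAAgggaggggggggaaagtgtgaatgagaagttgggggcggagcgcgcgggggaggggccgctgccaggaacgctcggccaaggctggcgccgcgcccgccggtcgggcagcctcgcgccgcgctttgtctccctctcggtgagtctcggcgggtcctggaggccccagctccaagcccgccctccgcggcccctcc

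Counted from the transcription start, with bases before it negative, the kappa-B match begins at -56 in Ccrl2 (GGGGCTTCCC) and at -44 in Il6 (GGGATTTTCC). In Nfkbia it begins at -29 and reads GGAAATTCCC, a match on the opposite strand. The first of the 3 Ccrl2 windows is shown, and the other two hold no kappa-B match. The 8 genes have 12 windows, of which 6 hold a kappa-B match, 1 window in each of 6 genes, the others being Cxcl1, Tnfaip3 and Il1r1, and in Cxcl1 the matches on both strands overlap at 1 place. Of all 32851 windows of 300 bases, 4.51% hold a kappa-B match. The STAT-type match of Socs3 (TTCTTAGAA) begins at -154 and was the only one among the 8 genes, while 8.3% of all windows hold one. The genes were picked for their place in the NF-kB pathway, so these matches are a description of the windows, and no binding was measured.

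The deposited values are log2 RMA intensities, on which a difference of 1 is a factor of 2. Within groups the arrays correlated at 0.960 to 0.990 (Pearson's r over all rows of the table). The lowest value was 0.985 when animal 2 of the colonized saline group was not counted. Several of the results that rest on this array are also given without it. Background was read from 5222 negative control rows. Their median per array was 5.30 to 5.54 in germ-free and 4.70 to 4.83 in colonized arrays, which cannot be told apart from colonization itself. Nfkbia lay above the 95th percentile of the negative controls in 12 of 12 arrays, Ccrl2 in 7, and Il1r1 and Tnfaip3 in 3 each. The other 6 genes lay above it in none, and Il6 lay above the median of the negative controls in 1 of 12 arrays. The labelled tissue was present, with 13 of 13 measured chromaffin markers (such as Th and Dbh, enzymes of catecholamine synthesis) above a dim limit of 7.71, the 95th percentile of the negative control means. Adrenal cortex was present too, with 10 of 10 cortex markers above that limit. Cortex markers had group means of 12.44 to 12.73, against 10.16 to 11.18 for chromaffin markers, and the share of cortex in the tissue was not measured. Of the immune markers, 6 of 11 macrophage, 0 of 9 neutrophil and 0 of 9 lymphocyte markers lay above that limit. Adipocyte markers averaged 10.42 to 10.86 in germ-free insulin, 9.19 to 9.89 in germ-free saline, 6.31 to 8.83 in colonized insulin and 6.66 to 10.60 in colonized saline arrays. Intestinal epithelium markers averaged 7.61 to 9.62 in germ-free saline arrays and at most 5.33 in all others. In such pieces of tissue, fewer cells of a type and less RNA per cell cannot be told apart.

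**Figure D1:**
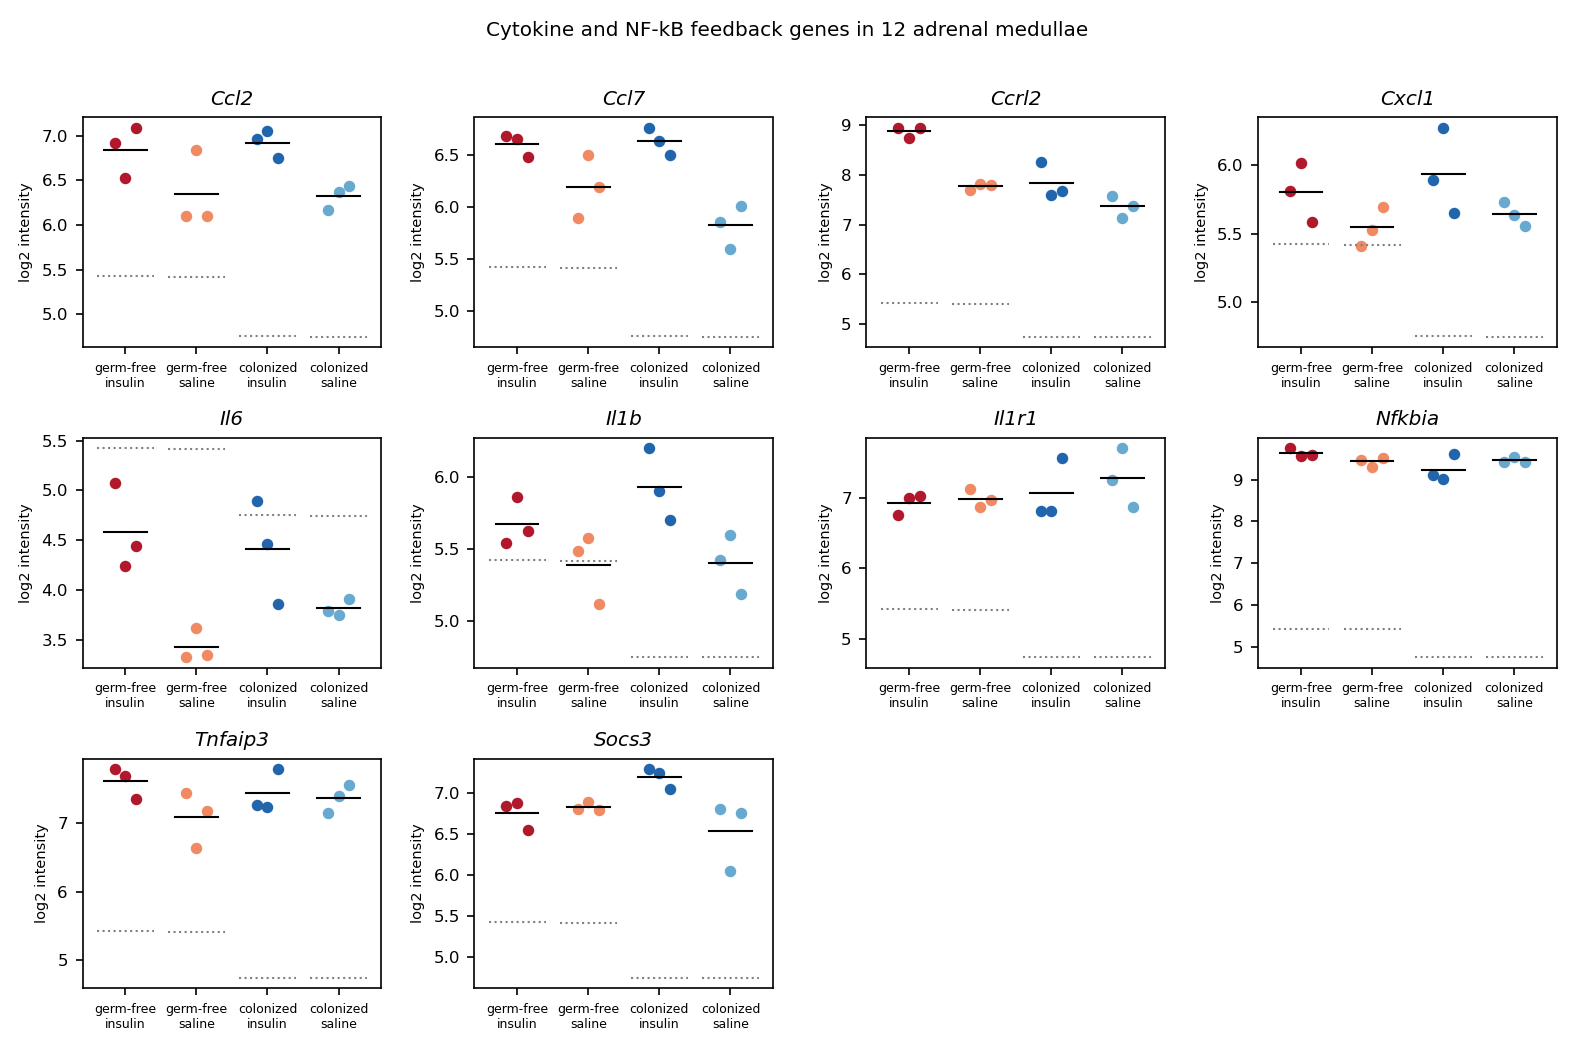
Log2 intensity of the 10 genes in each of the 12 mice (points), with group means (black lines, n = 3) and the mean over the arrays of a group of the median of the negative controls (dotted grey lines). The germ-free insulin points of Ccrl2 (8.73 to 8.94) lie above all its other points, and all but 1 of the Il6 points lie below the negative control median of their own array.

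Ccrl2 encodes an atypical chemokine receptor that binds the chemoattractant chemerin. It was the 1 gene of the 10 called higher after insulin (adjusted p under 0.05) within a colonization state, in germ-free mice. Its level was 8.94, 8.73 and 8.94 in germ-free insulin mice, against 7.70, 7.82 and 7.79 in germ-free saline mice. In colonized insulin mice it was 8.26, 7.59 and 7.67, against 7.57, 7.14 and 7.38 in colonized saline mice. The insulin arrays lay above the saline arrays in both states, by a wide margin in germ-free and by a narrow one in colonized mice. In germ-free mice the rise was 1.10 ± 0.17 as a log2 difference (± SE, 3 animals a group, limma adjusted p = 0.0137), or 2.14-fold, with a 95% confidence interval of 0.73 to 1.47. The fold starts from a dim level. All germ-free saline values lay above the median but below the 95th percentile of their negative controls (8.31, 8.28 and 8.23). Of all genes, 0.138% were called higher and 0.297% lower in that comparison. In colonized mice the difference was 0.47 ± 0.17 (95% confidence interval 0.11 to 0.84, limma adjusted p = 0.321), and it was not called, where 0.108% of all genes were called higher and 0.041% lower. Over both states the mean effect was 0.79 ± 0.12 (limma adjusted p = 0.0143), where 0.246% of all genes were called higher and 0.164% lower. The germ-free call was lost without animal 7, 9, 10 or 12 (limma adjusted p = 0.0665, 0.0713, 0.0631 and 0.0843), and the mean call without animal 9 (0.0592), while the rise in germ-free mice stayed between 1.06 and 1.17 in all 12 fits that left out 1 array. Macrophage markers averaged 7.37 to 7.48 in germ-free insulin arrays and 7.52 to 7.74 in germ-free saline arrays, with 0 of 11 above 0 for this contrast and 0 called. In the same contrast 7 of 8 intestinal epithelium markers and 3 of 13 chromaffin markers were called lower (median differences of -3.89 and -0.53), and 9 of 9 adipocyte markers lay above 0 with 0 called (median 0.76). The part of these in the Ccrl2 rise was not tested beyond the adipocyte covariate, with which Ccrl2 kept its call.

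The germ-free insulin arrays also set Ccrl2 apart between colonization states. After insulin it was higher in germ-free than in colonized mice by 1.03 ± 0.17 (limma adjusted p = 0.00551, 3 animals a group), or 2.04-fold, and this call was kept in 12 of 12 fits that left out 1 array. Measured from the median of the negative controls of the same array, Ccrl2 lay at 3.64, 3.30 and 3.40 in germ-free insulin mice, against 3.49, 2.84 and 2.93 in colonized insulin mice. On that measure the groups overlapped and the gap was smaller than on the deposited scale. After saline the difference was 0.40 ± 0.17 (limma adjusted p = 0.167), which was not called. The 3 germ-free saline arrays lay above the 3 colonized saline arrays on the deposited scale. Measured from the negative control medians they lay below them by a narrow margin, at 2.27, 2.35 and 2.436 in germ-free saline mice, against 2.86, 2.443 and 2.55 in colonized saline mice, so the order depends on the background. The sources used here do not state whether arrays of both colonization states were normalized in 1 run. Both comparisons use arrays that also enter the insulin comparisons. With adipocyte markers as a covariate, the difference after insulin was 1.41 (limma adjusted p = 0.0326). Chromaffin markers averaged 9.94 to 10.42 in germ-free insulin arrays and 10.92 to 11.42 in colonized insulin arrays, and their part in the result was not tested. The insulin effects of both states, set against each other, differed by 0.62 ± 0.24 (95% confidence interval 0.11 to 1.14, limma adjusted p = 0.405), so a larger effect in germ-free mice was not shown, where 0.0103% of all genes were called higher and 0.0256% lower.

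The chemokines Ccl2 and Ccl7 are neighbouring relatives that attract monocytes. Ccl7 had 6.68, 6.65 and 6.48 in germ-free insulin mice, against 5.89, 6.50 and 6.19 in germ-free saline mice. It had 6.76, 6.64 and 6.50 in colonized insulin mice, against 5.86, 5.59 and 6.01 in colonized saline mice. The groups did not overlap in colonized mice, and in germ-free mice saline animal 8 reached the lower end of the insulin arrays. Ccl7 rose in the mean over both states by 0.61 ± 0.11 (limma adjusted p = 0.0400, 3 animals a group), while neither state was called alone, at 0.41 ± 0.16 in germ-free (limma adjusted p = 0.473) and 0.81 ± 0.16 in colonized mice (limma adjusted p = 0.0770). The mean call of Ccl7 held in 4 of the 12 fits that left out 1 array, those without animal 2, 3, 6 or 8, and its value stayed between 0.54 and 0.69.

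Ccl2 gave 6.91, 6.53 and 7.09 in germ-free insulin mice, against 6.10, 6.84 and 6.10 in germ-free saline mice. It gave 6.96, 7.05 and 6.75 in colonized insulin mice, against 6.17, 6.37 and 6.44 in colonized saline mice. As for Ccl7, the colonized groups did not overlap and germ-free saline animal 8 lay among the insulin arrays. The effects of 0.49 ± 0.20 in germ-free (limma adjusted p = 0.520) and 0.59 ± 0.20 in colonized mice (limma adjusted p = 0.303) were not called, nor was their mean of 0.54 ± 0.14 (limma adjusted p = 0.172). The difference of the effects was -0.10 (95% confidence interval -0.72 to 0.52).

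Cxcl1, which attracts neutrophils, showed the smallest effects of the 3 chemokines. It had 5.81, 6.01 and 5.59 in germ-free insulin mice, against 5.41, 5.53 and 5.70 in germ-free saline mice. It had 5.90, 6.27 and 5.65 in colonized insulin mice, against 5.73, 5.64 and 5.55 in colonized saline mice. The groups overlapped in both states, and the effects of 0.26 ± 0.16 in germ-free and 0.30 ± 0.16 in colonized mice were not called (limma adjusted p = 0.771 and 0.479). The neutrophil markers averaged 4.78 to 4.98 in germ-free insulin, 4.68 to 4.89 in germ-free saline, 4.71 to 5.06 in colonized insulin and 4.79 to 4.91 in colonized saline arrays.

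**Figure D2:**
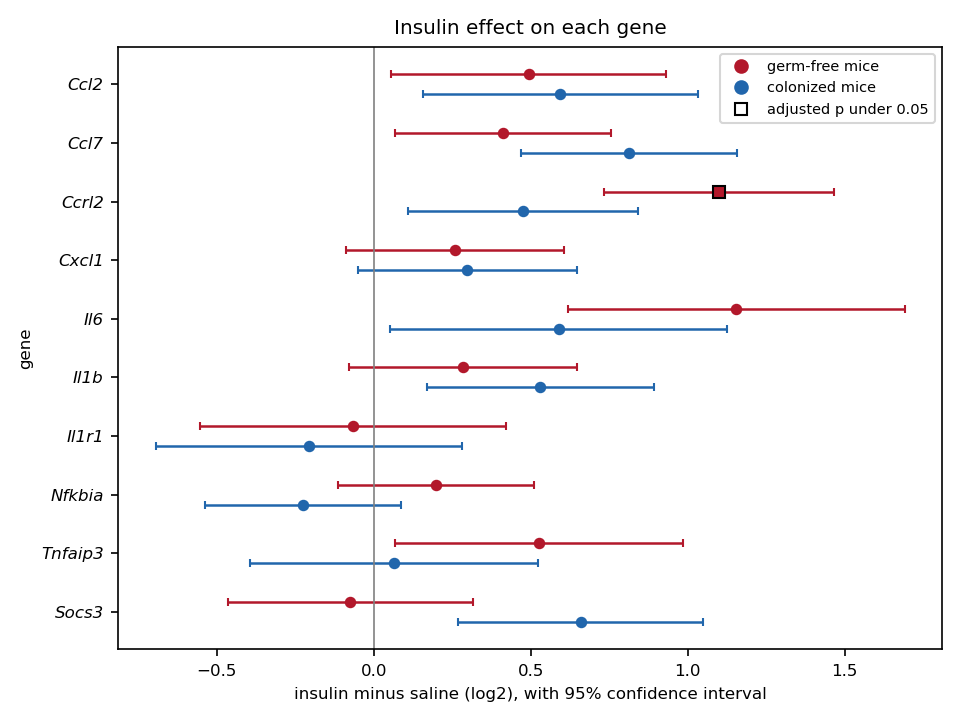
Insulin minus saline for each gene on the log2 scale (horizontal axis) in germ-free and colonized mice, with 95% confidence intervals from the limma fit (3 animals a group). Of the 20 effects drawn, that of Ccrl2 in germ-free mice (1.10) is the 1 with an adjusted p under 0.05, and 8 of 10 points lie above 0 in each state.

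Il6 encodes interleukin 6, a cytokine that acts on steroid-producing and chromaffin cells. Its values were low, at 5.07, 4.24 and 4.44 in germ-free insulin mice, against 3.32, 3.62 and 3.35 in germ-free saline mice. They were 4.89, 4.47 and 3.86 in colonized insulin mice, against 3.79, 3.75 and 3.91 in colonized saline mice. The germ-free groups did not overlap, and in colonized mice insulin animal 6 lay among the saline arrays. Only animal 4, a colonized insulin mouse, exceeded the median of its negative controls, so both groups of each comparison lie in the range of background and no fold is given. The difference of the measured values was 1.15 ± 0.25 in germ-free mice (limma adjusted p = 0.0881, 3 animals a group), 0.59 ± 0.25 in colonized mice (limma adjusted p = 0.385) and 0.87 ± 0.17 in the mean (limma adjusted p = 0.0632). None of these was called with all arrays. The mean was called without animal 6 (1.01, limma adjusted p = 0.0155), with array weights and with adipocyte markers as a covariate. The germ-free effect was called without animal 4 or 6 (limma adjusted p = 0.0480 and 0.0312), and also with array weights, with the germ-free groups fitted alone and with adipocyte markers as a covariate.

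Il1b encodes interleukin 1 beta and Il1r1 the receptor through which it signals. Il1b had 5.54, 5.86 and 5.62 in germ-free insulin mice, against 5.48, 5.57 and 5.11 in germ-free saline mice, and these groups overlapped. It had 6.20, 5.90 and 5.70 in colonized insulin mice, against 5.42, 5.60 and 5.18 in colonized saline mice, without overlap. The effects were 0.28 ± 0.17 in germ-free and 0.53 ± 0.17 in colonized mice (limma adjusted p = 0.739 and 0.268, 3 animals a group), neither of them called. Il1r1 lay slightly lower after insulin, with a mean of 6.92 ± 0.15 in germ-free insulin and 6.98 ± 0.12 in germ-free saline mice, and of 7.06 ± 0.43 in colonized insulin and 7.27 ± 0.41 in colonized saline mice (SD, n = 3 each). Its difference in colonized mice, -0.21 ± 0.22, rested on saline animal 2 (7.69) and was 0.0045 without it. That animal also had the highest mean of fibroblast markers (9.97, against 7.70 to 8.64 in the other 11 arrays). It was highest as well for liver (11.20), mast cell (5.93) and Schwann and sustentacular markers (6.86). The part of these lists in the Il1r1 value was not tested.

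The feedback inhibitors did not share 1 pattern. Nfkbia encodes I-kappa-B alpha, which binds NF-kB and is itself induced by it. It had 9.74, 9.57 and 9.58 in germ-free insulin mice, against 9.46, 9.31 and 9.52 in germ-free saline mice. It had 9.10, 9.01 and 9.60 in colonized insulin mice, against 9.43, 9.53 and 9.42 in colonized saline mice. The germ-free groups did not overlap, while 2 of 3 colonized insulin arrays lay below all saline arrays and 1 above. The effects of 0.20 ± 0.14 in germ-free and -0.23 ± 0.14 in colonized mice were not called (limma adjusted p = 0.824 and 0.545, 3 animals a group), nor was their difference of 0.42 ± 0.20 (limma adjusted p = 0.519).

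Tnfaip3 encodes A20, an enzyme that edits ubiquitin chains and damps signalling to NF-kB. It had 7.78, 7.68 and 7.35 in germ-free insulin mice, against 7.42, 6.64 and 7.17 in germ-free saline mice. It had 7.26, 7.23 and 7.78 in colonized insulin mice, against 7.15, 7.39 and 7.55 in colonized saline mice. Groups overlapped in both states, and the effects of 0.53 ± 0.21 in germ-free and 0.07 ± 0.21 in colonized mice were not called (limma adjusted p = 0.514 and 0.923, 3 animals a group).

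Socs3 encodes the inhibitor of the kinases below the interleukin 6 receptor. It had 6.84, 6.88 and 6.55 in germ-free insulin mice, against 6.81, 6.89 and 6.80 in germ-free saline mice. It had 7.29, 7.24 and 7.05 in colonized insulin mice, against 6.81, 6.04 and 6.76 in colonized saline mice. The colonized insulin arrays lay above every other array of the study, and the germ-free groups overlapped. The effect was 0.66 ± 0.18 in colonized mice (limma adjusted p = 0.216, 3 animals a group) and 0.41 without animal 2, which had the lowest value. In germ-free mice it was -0.07 ± 0.18 (95% confidence interval -0.46 to 0.32). The difference of the effects, -0.73 ± 0.25, had an unadjusted p of 0.0134 and an adjusted p of 0.373 by limma and was not called. Without animal 2 this difference was -0.49 (limma adjusted p = 0.333). After insulin Socs3 was 0.44 ± 0.18 below the colonized level in germ-free mice (limma adjusted p = 0.167), not called with all arrays, called without animal 2 (limma adjusted p = 0.0196), and at 0.0157 on the other side of 0 with adipocyte markers as a covariate.

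Because the genes were chosen with earlier results of these data known, the shares below describe the 10 and are no test of them. Read together against the background of all genes, the 10 genes had more values above 0 than not after insulin in both states. Their median effect was 0.35 in germ-free mice, where 8 of 10 lay above 0 against 51.7% of all genes, and 0.50 in colonized mice, where 8 of 10 lay above 0 against 51% of all genes. The median of all genes was 0.0063 in germ-free and 0.0047 in colonized mice. At an unadjusted p under 0.05, 5 of the 10 were higher in germ-free mice (3.78% of all genes) and 6 in colonized mice (6.17% of all genes), while 0 were lower (4.51% and 5.59% of all genes). In the mean over both states 7 were higher (4.78% of all genes) and 0 lower (5.54%), and 8 lay above 0 (51.9%). The groups did not overlap, with insulin higher, for 3 of 10 in germ-free mice (9.56% of all genes) and 5 of 10 in colonized mice (7.52% of all genes). With insulin lower it was 0 of 10 in germ-free (10.1% of all genes) and in colonized mice (6.54%). Insulin was higher without overlap in both states for Ccrl2 alone, 1 of 10 (0.856% of all genes), and lower in both for 0 (0.774%). For the difference of the effects limma called 0 of 10, with 2 at an unadjusted p under 0.05, Ccrl2 upward and Socs3 downward in germ-free relative to colonized mice, against 4.69% and 5.26% of all genes in these directions, and 5 of 10 differences lay above 0 (49.6% of all genes).

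Between colonization states, after insulin, 1 of 10, Ccrl2, was called higher in germ-free mice, where 2.6% of all genes were called higher and 5.15% lower. The groups after insulin did not overlap for Ccrl2, higher in germ-free mice (12% of all genes), and Socs3, lower (19.9%). After saline they did not overlap for Ccrl2, higher (10.9%), and Il6, lower (16.4%). At an unadjusted p under 0.05 after insulin, 2 were higher (8.34% of all genes) and 1 lower (14.1%), and 4 lay above 0 both after insulin (44.5%) and after saline (44%). After saline limma called 0 of 10, with 2 at an unadjusted p under 0.05 (Ccl7 at 0.37 ± 0.16 and Ccrl2, against 9.07% of all genes higher and 15% lower at that p), where 2.79% of all genes were called higher and 4.09% lower. The share of all called genes moved with the scaling: of those called after saline, 40.5% were higher in germ-free mice, against 27.2% with a second quantile normalization and 64.0% with median centring. After insulin that share was 33.5%, against 24.1% and 50.9%. The median over the 10 genes was -0.05 after insulin and -0.02 after saline, close to the median of all genes (-0.03 and -0.04). Nfkbia was 0.39 ± 0.14 higher in germ-free mice after insulin (limma adjusted p = 0.122), not called with all arrays but called without animal 6 (0.58, limma adjusted p = 0.0140), and differed by -0.03 after saline (95% confidence interval -0.34 to 0.28). Measured from the negative control median of each array, Nfkbia after insulin was 4.45, 4.14 and 4.04 in germ-free mice, against 4.34, 4.26 and 4.86 in colonized mice. Ccl7 after saline was 0.46, 1.04 and 0.83 in germ-free mice on that measure, against 1.14, 0.90 and 1.18 in colonized mice. Neither gene was higher in germ-free mice on that measure, so the direction depends on the background.

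**Figure D3:**
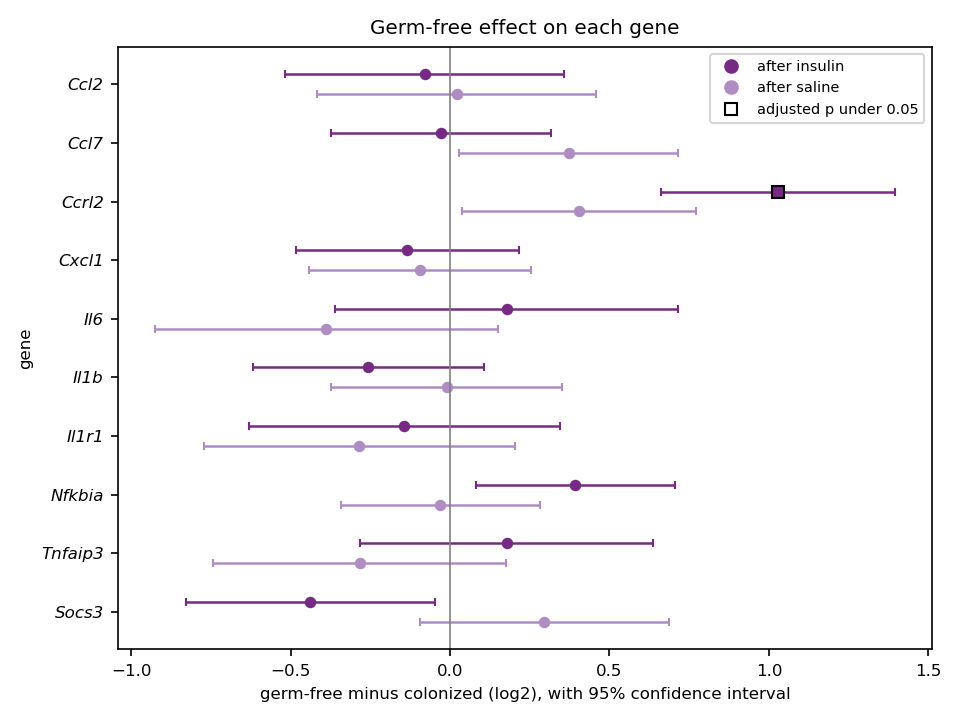
Germ-free minus colonized for each gene on the log2 scale (horizontal axis), after insulin and after saline, with 95% confidence intervals from the limma fit (3 animals a group). Ccrl2 after insulin (1.03) is the 1 difference with an adjusted p under 0.05. Socs3 lies at -0.44 after insulin and 0.30 after saline, neither called, and its saline value is 0.050 without animal 2.

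The wider pathway was read from 7 lists of 119 other genes, of which 108 were measured. For insulin, limma called 0 of 108 in either state, in the mean and for the difference, with 10 higher and 7 lower in germ-free mice (3.78% and 4.51% of all genes) and 16 higher and 7 lower in colonized mice (6.17% and 5.59% of all genes) at an unadjusted p under 0.05. Between states, 6 of 108 were called higher and 2 lower in germ-free mice after saline, where 2.79% and 4.09% of all genes were. After insulin 2 of 108 were called higher and 6 lower, where 2.6% and 5.15% of all genes were, so the counts after insulin are near the share over all genes. After saline the count called higher lay above that share and the count called lower lay below it, which was not tested further. Liver markers averaged 8.80 to 10.47 in germ-free saline and 6.17 to 11.20 in colonized saline arrays, and the part of these and of the intestinal markers in the calls after saline was not tested. After insulin, 10 of 13 chromaffin markers were called lower in germ-free mice (median -1.06). There 6 of 9 adipocyte markers were called higher (median 3.51). The part of these in the calls after insulin was not tested beyond the adipocyte covariate. Adipocyte markers did not overlap between the insulin groups (10.42 to 10.86 in germ-free, 6.31 to 8.83 in colonized arrays). After insulin that covariate is thus hard to tell apart from colonization. Differences of list genes between states are on the deposited scale and were not measured from the negative controls. The medians of those controls were 5.36 to 5.46 in germ-free saline and 4.70 to 4.83 in colonized saline arrays. That gap is about as large as the differences after saline of Clcf1, Rel, Map3k14 and Nfkbiz given below. The median over the 108 genes was -0.02 for insulin in germ-free mice and 0.05 in colonized mice.

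Among 16 other chemokines none was called in any of the 6 comparisons, and at most 3 in a direction had an unadjusted p under 0.05. Those of largest mean insulin effect were the interferon-induced Cxcl9 (-1.08 ± 0.33, limma adjusted p = 0.247), Ccl3, which attracts macrophages (0.53 ± 0.12, limma adjusted p = 0.0860), and Cxcl2, a relative of Cxcl1 (0.51 ± 0.11, limma adjusted p = 0.0707), 3 animals a group. Ccl3 had 6.55, 6.56 and 6.44 in germ-free insulin mice, against 5.59, 5.74 and 5.65 in germ-free saline mice, and its colonized groups overlapped. Cxcl9 had 6.19, 6.25 and 6.35 in germ-free insulin mice, against 8.01, 6.47 and 7.07 in germ-free saline mice, without overlap, and its colonized groups overlapped. Without animal 2 the mean effect of Cxcl9 was -0.82 (limma adjusted p = 0.224). The mean effects of Cxcl2 and Ccl3 were called with array weights (limma adjusted p = 0.00738 and 0.0292). That of Cxcl2 was also called with the adipocyte covariate (0.0110) and without animal 1 (0.0171), and that of Ccl3 without animal 5 (0.0423).

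Of 14 measured cytokines, 1 was called, Clcf1, a ligand of the interleukin 6 family. It was 0.79 ± 0.21 higher in germ-free than in colonized mice after saline (limma adjusted p = 0.0453, 3 animals a group), with 6.57, 6.43 and 6.94 in germ-free saline mice, against 6.11, 5.45 and 6.02 in colonized saline mice. Without animal 2, which had the lowest value, it was 0.58 (limma adjusted p = 0.0841), and the call held only without animal 1 or 11. It was also lost with a second quantile normalization (limma adjusted p = 0.101), array weights (0.0610) and the saline groups fitted alone (0.127). The gap in negative control medians between the saline groups was about as large as the Clcf1 difference, and its part was not tested. Il18 and Il33, cytokines of the interleukin 1 family, had mean insulin effects of -0.40 ± 0.14 and -0.30 ± 0.17, neither called. Without animal 2 that of Il33 was -0.15. Of 15 measured receptors, Cxcr4, the receptor for Cxcl12, was called. It was 1.06 ± 0.28 higher in germ-free mice after insulin (limma adjusted p = 0.0382), with 9.46, 9.67 and 9.75 in germ-free insulin mice, against 8.40, 8.11 and 9.18 in colonized insulin mice. With adipocyte markers as a covariate this difference was 0.22 (limma adjusted p = 0.776), and the call was also lost with trend and robust options (0.0508) and without animal 4, 5, 7, 9, 10, 11 or 12. The interleukin 1 decoy receptor Il1r2 (0.31 ± 0.11) and the atypical chemokine receptor Ackr1 (-0.38 ± 0.21), given as mean insulin effects, were not called, and both lay at 5.80 or below in every array. Without animal 2 the mean effect of Ackr1 was -0.16.

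Of 13 measured genes of the NF-kB core, the subunit gene Rel and the kinase gene Map3k14, which drives the alternative NF-kB branch, were higher in germ-free mice after saline, by 0.70 ± 0.18 and 0.55 ± 0.11 (limma adjusted p = 0.0404 and 0.0146, 3 animals a group). Rel had 8.92, 9.05 and 9.06 in germ-free saline mice, against 8.56, 7.77 and 8.61 in colonized saline mice, and the difference was 0.43 without animal 2 (limma adjusted p = 0.0249). The Rel call held without animal 1, 2 or 3 and was lost without any of the other 9, and that of Map3k14 was lost without animal 7 or 9. Both were also lost with the saline groups fitted alone (limma adjusted p = 0.166 and 0.0944). Negative control medians also lay higher in germ-free saline than in colonized saline arrays, by about as much as Rel and Map3k14, and their part was not tested. The adaptor genes Traf2 and Tab1 were lower in germ-free mice after insulin, by -0.52 ± 0.12 and -0.53 ± 0.14 (limma adjusted p = 0.0197 and 0.0418). Both calls were lost with adipocyte markers as a covariate (limma adjusted p = 0.348 and 0.387). That of Traf2 was also lost without animal 5, 10, 11 or 12, and that of Tab1 without animal 4, 6, 7, 8, 9, 10 or 12, with median centring (limma adjusted p = 0.0711) and with the insulin groups fitted alone (0.0555).

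Among 16 measured inhibitors and atypical I-kappa-B proteins, Nfkbiz and Bcl3 were called in opposite directions. Both encode nuclear I-kappa-B proteins that act as partners of NF-kB subunits on DNA. Nfkbiz had 7.31, 7.22 and 7.20 in germ-free saline mice, against 6.46, 6.78 and 6.70 in colonized saline mice, a difference of 0.60 ± 0.11 (limma adjusted p = 0.0116, 3 animals a group). The call was lost without animal 7 and with the saline groups fitted alone (limma adjusted p = 0.0746). This difference is also about as large as the gap in negative control medians between the saline groups, whose part was not tested. Bcl3 had 7.53, 7.71 and 7.81 in germ-free insulin mice, against 9.66, 9.67 and 8.55 in colonized insulin mice, a difference of -1.61 ± 0.36 (limma adjusted p = 0.0201). It was -0.58 with adipocyte markers as a covariate (limma adjusted p = 0.548), and the call was also lost without animal 4, 5, 10, 11 or 12. Zfp36, which promotes decay of cytokine mRNAs, had a mean insulin effect of 0.43 ± 0.15 (limma adjusted p = 0.338).

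In the JAK and STAT list (16 measured) Stat3, the transcription factor activated by interleukin 6, was lower in germ-free mice after insulin by -0.996 ± 0.15 (limma adjusted p = 0.00436, 3 animals a group). It had 8.77, 8.59 and 8.83 in germ-free insulin mice, against 9.95, 9.87 and 9.37 in colonized insulin mice. The call held in 12 of 12 fits that left out 1 array and was lost with adipocyte markers as a covariate, at -0.63 (limma adjusted p = 0.187). Ptpn6, a phosphatase that dampens cytokine receptors in blood cells, was lower in germ-free mice after insulin (-0.55 ± 0.12, limma adjusted p = 0.0180) and after saline (-0.52 ± 0.12, limma adjusted p = 0.0250). The first call was lost without animal 4, 5, 10, 11 or 12 and with the adipocyte covariate (limma adjusted p = 0.130), the second without animal 8 or 9 and with the saline groups fitted alone (0.134). Socs6, a relative of Socs3, had a mean insulin effect of -0.26 ± 0.20 and was not called.

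Of 18 other inducible genes with NF-kB sites, 3 were called between states. Ier3, an early survival gene, had 9.90, 10.11 and 9.25 in germ-free saline mice, against 7.72, 7.87 and 7.80 in colonized saline mice. The difference of 1.95 ± 0.26 (limma adjusted p = 0.00192, 3 animals a group) was called in 12 of 12 fits that left out 1 array. After insulin Ier3 had 9.86, 10.08 and 10.45 in germ-free mice, against 9.82, 9.19 and 8.80 in colonized mice, which was not called. The colonized insulin arrays lay above the colonized saline arrays, and that insulin effect was not called. Gadd45b, a stress-induced gene that restrains JNK signalling, was higher in germ-free mice after insulin (1.13 ± 0.19, limma adjusted p = 0.00606) and after saline (1.23 ± 0.19, limma adjusted p = 0.00484). It had 9.71, 9.96 and 10.46 in germ-free insulin mice, against 8.97, 8.98 and 8.80 in colonized insulin mice. Tnfaip2, induced by tumour necrosis factor, was lower in germ-free mice after insulin (-0.85 ± 0.19, limma adjusted p = 0.0198) and after saline (-0.72 ± 0.19, limma adjusted p = 0.0424). Of the fits that left out 1 array, the call after saline held only in that without animal 2 (-0.98), and it was also lost with median centring (limma adjusted p = 0.0763) and the saline groups fitted alone (0.171). That after insulin was lost without animal 4, 5, 10, 11 or 12. With adipocyte markers as a covariate, neither was called after insulin, at 1.30 for Gadd45b (limma adjusted p = 0.0949) and -0.36 for Tnfaip2 (limma adjusted p = 0.512). The Gadd45b difference was larger with the covariate than without it.

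**Figure D4:**
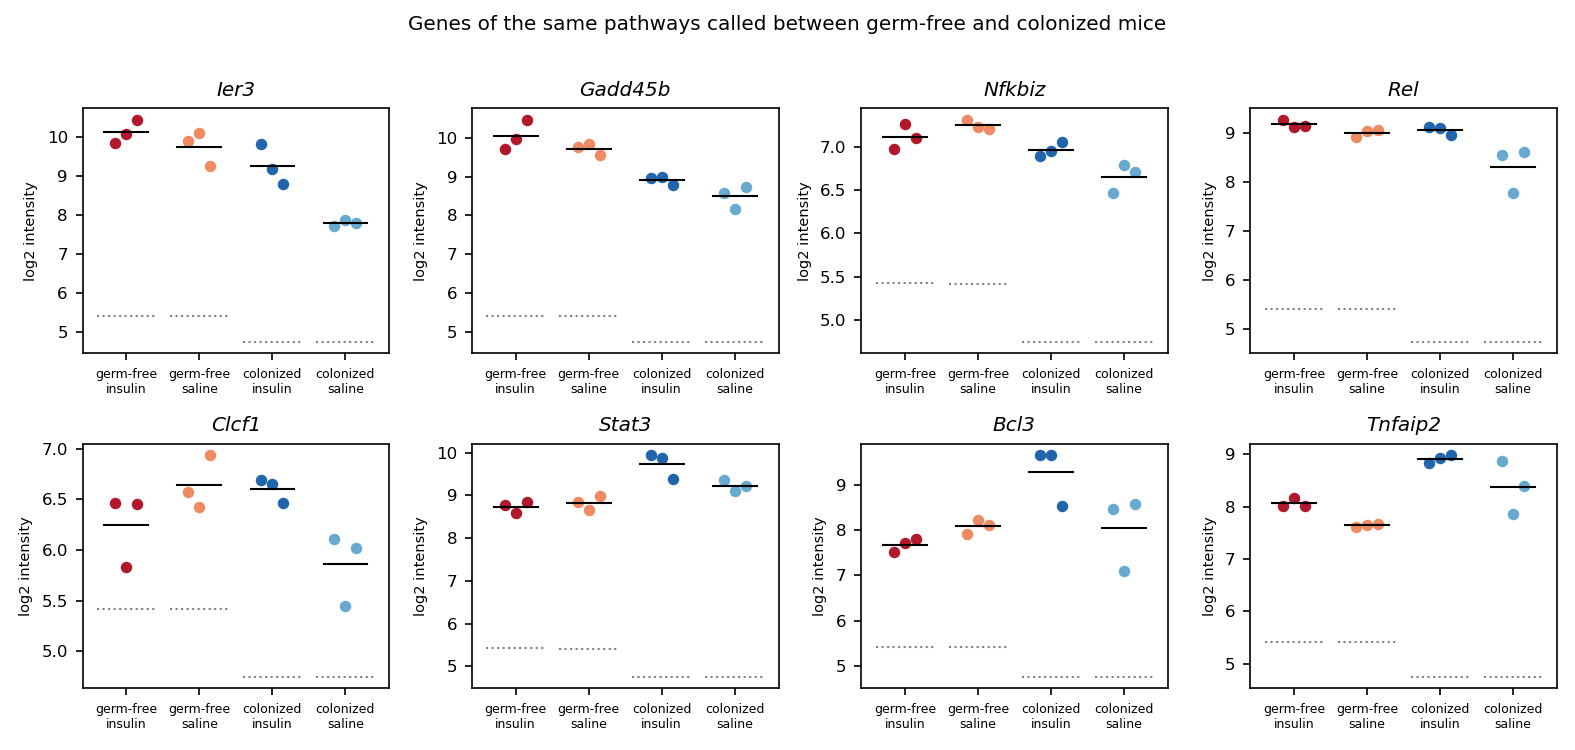
Log2 intensity of 8 genes of the pathway lists that were called between germ-free and colonized mice, in each of the 12 mice (points), with group means (black lines, n = 3) and negative control medians (dotted grey lines). Ier3 and Gadd45b lie higher in germ-free saline than in colonized saline mice, and Stat3 and Bcl3 lie lower in germ-free insulin than in colonized insulin mice.

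The genes most like Ccrl2 and Il6 over the 12 arrays were sought by the root mean square difference of the values after each gene was centred on its own mean. These were the 2 genes of the 10 whose SD over the arrays reached 0.5. Nearest to Ccrl2 were Btg2, an antiproliferative early gene (0.21), Ifrd1, a transcriptional co-regulator (0.22), and Spty2d1, a histone chaperone (0.24), against a median difference of 0.62 over all candidate genes. Ifrd1 rose after insulin in germ-free mice as well, by 1.01 (limma adjusted p = 0.0308, 3 animals a group). Nearest to Il6 were Gclc, the catalytic subunit of glutathione synthesis (0.18), the receptor gene Gpr3 (0.24) and the receptor-like gene Gprc5a (0.27), against a median of 0.57. Since Il6 lay below the negative control median in all but 1 array, this ranking describes a signal in the range of background. Of these Gprc5a was called for insulin in germ-free mice (1.28, limma adjusted p = 0.0161).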

How the data were processed

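RNA of the dissected adrenal medulla was hybridised to Affymetrix arrays, 1 per animal. The authors deposited log2 intensities per probe set, and the submitters' processing notes name RMA and limma, with no version for either. A joint RMA run of the 12 arrays and the annotation's build are not given in the sources used here. The values were used as deposited (2.46 to 13.9). Their log2 scale and direction follow from RMA, their centring was not checked against scanner files, and the column medians were 6.45 to 6.49 in germ-free and 6.26 to 6.33 in colonized arrays. Of 28846 rows, 19572 had 1 gene symbol and 9274 none, giving 19505 genes after the probe set with the highest mean was kept for each of the 55 genes with several.

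The main model took group means over the 12 arrays with lmFit and eBayes (limma 3.58.1, R 4.3.3; 8 residual and 4.08 prior degrees of freedom) for 6 contrasts. P values were adjusted by Benjamini-Hochberg over the 19572 named probe sets, and a call needed an adjusted value below 0.05. Errors beside differences are standard errors, and the number of arrays limits the precision. The labels name separate animals. The genes described, the pathway and marker lists and the tests were chosen with earlier results of these data known. Named were the 10 genes, list genes called in any contrast, where fewer than 3 were called the largest mean insulin effects up to 3 per list, and the 3 nearest profiles of genes with an SD of at least 0.5. Promoters were searched with Python 3.11.15. The fit was tested on simulated data. Alternatives were a filter on dim probe sets, 1 probe set per gene, 2 other scalings, trend and robust options, array weights, the compared groups alone, an adipocyte covariate and leaving out each array.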

Additional observations from a re-analysis of the deposited data

How the results depend on the processing

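Across the 10 genes and the named list genes, 539 of 590 values under other settings kept their direction and side of the threshold, 20 lost their call, 11 gained one and 20 turned sign. With 1 array left out it was 900 of 1020, with 81 lost, 8 gained and 31 turned. No value that was called turned sign. The Ccrl2 calls held in all settings other than leaving out an array, and dimness limits 8 of the 10 genes, which lay below the dim limit of 7.71. Where no value shows the cause of a change, the cause was not tested. No paired analysis was possible because the animal numbers run from 1 to 12 and no groups share one. Averaging probe sets was not run, since each of the 10 genes has 1.

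With dim probe sets left out, so that fewer genes were tested, insulin called 45 genes in colonized mice (29 in the fit as reported) and 32 in germ-free mice (85). Of the 10 genes only 2, Ccrl2 and Nfkbia, were still tested, and 1, Ccrl2, was called in the mean. Ccl7 was not tested with that filter. The second quantile normalization called 11 genes for the difference of effects (7), put Cxcl1 at 0.0014 for that difference, and put germ-free minus colonized after saline at -0.15 for Ccl2 and 0.0022 for Nfkbia. Median centring called 2 genes for the difference, of which 0 were higher (2 of 7 as reported), and 52 higher and 21 lower in the mean (48 and 32). It put Nfkbia at 0.025 in the mean, Il1b at 0.068 and Nfkbia at 0.048 between states after saline, and Ccl7 at 0.040 after insulin. Trend and robust options called 50 genes in colonized mice. Array weights called 66 genes for insulin in colonized and 543 in germ-free mice, 148 for the difference, 247 in the mean, and 2348 and 3712 between states after saline and insulin. Of the 10 genes they called 2 in germ-free mice (Il6 added), 4 in the mean (Il6 and Il1b added) and 3 between states after insulin (Nfkbia and Socs3 added). They put the colonized effect of Tnfaip3 at -0.077, Il1b after saline at 0.14 and Il6 after insulin at -0.092. With the compared groups alone, insulin called 0 genes in colonized mice and 318 in germ-free mice, 2 of the 10 there (Il6 added), and 157 genes differed between states after saline.

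The adipocyte covariate left 1 gene called for insulin in colonized mice, 1 for the difference and 157 in the mean (Il6 added among the 10). Between states after insulin it left 29 genes called (1512 in the fit as reported). In germ-free mice it called 2 of the 10 for insulin (Il6 added). It put the insulin effect of Il1r1 at 0.022 in colonized mice and of Socs3 at 0.072 in germ-free mice. The difference of effects was 0.18 for Cxcl1 and -0.24 for Il1r1, and the mean effect of Nfkbia 0.0070. Il1b after saline was 0.0056, and after insulin Ccl7 was 0.19, Cxcl1 0.13, Tnfaip3 -0.20 and Socs3 0.016.

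With 1 array left out, genes called ranged over 1 to 70 for insulin in colonized mice, 25 to 199 in germ-free mice, 1 to 83 for the difference, 26 to 131 in the mean, 432 to 1929 between states after saline and 450 to 2841 after insulin. Of the 10 genes, 0 to 2 were called in germ-free mice, 0 to 3 in the mean and 1 to 2 between states after insulin. The mean effect was called for Ccl2 without animal 8 (0.67, limma adjusted p = 0.0276) and for Il6 without animal 6 (1.01, limma adjusted p = 0.0155). Values that turned sign, none of them called, ranged as follows. In colonized mice the insulin effect of Il1r1 ran over -0.46 to 0.0045 and that of Tnfaip3 over -0.11 to 0.16. In germ-free mice Il1r1 ran over -0.12 to 0.019 and Socs3 over -0.14 to 0.027. The difference of effects ran over -0.22 to 0.15 for Ccl2, -0.18 to 0.13 for Cxcl1 and -0.070 to 0.39 for Il1r1, and the mean of Nfkbia over -0.11 to 0.044. Between states after saline Ccl2 ran over -0.22 to 0.14, Il1b over -0.12 to 0.13 and Nfkbia over -0.076 to 0.030. After insulin Ccl2 ran over -0.20 to 0.078, Ccl7 over -0.094 to 0.036, Cxcl1 over -0.28 to 0.033, Il6 over -0.095 to 0.42 and Il1r1 over -0.27 to 0.11.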
